A study of Rattus norvegicus with 24 samples.

Results

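The 6 genes described here, Galnt16, Ptprj, Rsf1, Trps1, Haus1 and P3h3, were chosen from the ratios of MK-801 to saline in these arrays, because their ratios were of similar size in all dissected brain regions. The spread between regions was thus small by choice, and it is what a test of these ratios would divide by. The ratios at each dose and their difference between the doses are therefore given as a description, with no test. MK-801 is a channel blocker of NMDA receptors, the glutamate receptors that let calcium into neurons. The 6 are among 15520 named genes of the array and have 12 of the 41012 probes that are not controls, all 12 of which belong to the 27690 probes kept as measurable.

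RNA came from male Wistar rats, 10 weeks old, killed 40 min after an injection into the abdomen. There were 9 rats, 3 of them given saline. The other 6 were given MK-801, at either 0.16 mg per kg (high dose) or 0.08 mg per kg (low dose), and both dose groups were set against the same saline rats. Cerebral cortex, hippocampus, hypothalamus, amygdala, ventral striatum and midbrain were each measured on 4 two-colour arrays, a pair with exchanged dyes (a dye swap) for each dose, which makes 24 arrays. Which rat or pool of rats an array holds is not in the labels, so a dye swap counted as 1 value, and every n below counts regions of the same rats and not animals. A difference between the sets of rats and an effect of the drug cannot be told apart in this design.

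The share of probes well above background in both colours ranged from 56.3% to 79.1% over the arrays. Each region lay on a slide of its own, so region and slide cannot be told apart. In the saline RNA, the ventral striatum had the highest level of all 6 striatal markers and the midbrain that of all 4 measured midbrain markers. The other regions were set apart less well, with 3 of 5 cortical, 2 of 4 hippocampal, 2 of 6 hypothalamic and 2 of 5 amygdala markers highest where their labels place them. All 6 meningeal and all 5 measured choroid plexus markers were highest in the amygdala samples.

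The 6 genes belong to unrelated pathways. Galnt16 encodes an enzyme of the Golgi that attaches the first sugar, N-acetylgalactosamine, to serines and threonines of secreted and membrane proteins. Ptprj is a receptor-type tyrosine phosphatase that removes phosphate from growth factor receptors and their partners. Rsf1 is a histone-binding partner of the ISWI remodeller Smarca5, with which it spaces nucleosomes, and Trps1 is a repressor with a GATA-type zinc finger. Haus1 is a subunit of augmin, the complex that recruits the gamma-tubulin ring to existing microtubules so that new ones branch off. P3h3 belongs to the prolyl 3-hydroxylases, and in mice it takes part in the lysine modification of collagen.

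Each probe is a 60-base oligonucleotide, and a probe reports only the transcript ends or exons it can bind. The probes that carry the results are shown for that reason, 5′ to 3′ as in the scanner files, with positions on rat assembly rn3 as the files give them. Galnt16 and Rsf1 each had a single probe and are shown whole, because their file positions cover more bases than the probe has and so include an intron, as do those of 17.3% of all probes with a position. For the others the last 30 bases are shown, so that the probes of 1 gene can be set beside each other. Capitals mark the polyadenylation signal AATAAA, searched as these letters on the strand of the probe and held by 4.26% of all probes.
Galnt16 probe 1, chr6:104363509-104367590, plus strand: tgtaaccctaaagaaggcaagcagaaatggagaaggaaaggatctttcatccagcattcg
Rsf1 probe 1, chr1:155007714-155009243, plus strand: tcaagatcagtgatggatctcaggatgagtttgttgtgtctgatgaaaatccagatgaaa
Ptprj probe 1, chr3:74690369-74690428, minus strand: cactaggatgtgctgactttgggcactata
Trps1 probe 1, chr7:86875490-86875549, minus strand: agtaggattcttagaagtatgtcttcatag
Haus1 probe 1, chr18:74789762-74789821, minus strand: aaggatgtatgaagaagcgttatggagata
Haus1 probe 2, chr18:74792197-74792256, minus strand: agacaataatgtctttattggtaaaataac
P3h3 probe 1, chr4:161209246-161209305, minus strand: ctcaccttctcccaacctgtgcAATAAAgg
P3h3 probe 2, chr4:161223203-161223262, minus strand: ggaagacatggctaagtataggagaatgtc

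P3h3 probe 1 was the 1 probe of the 12 that held the polyadenylation signal. For Haus1 probe 2, the longest run shared with another probe of the array was 16 bases, on the opposite strand, with a probe of an unnamed transcript. The other 11 probes shared no run of 16 bases or more on either strand. Probes were numbered within a gene by their mean brightness. All 4 genes with several probes lie on the minus strand, and in each of them probe 1 has the lowest coordinate, which is the position nearest the 3′ end of the transcript. The files do not say which exon a probe lies in.

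Galnt16 was lower than saline in every region at both doses, and at the high dose it was the furthest from saline of the 6 genes. At the high dose its log2 ratio of MK-801 to saline was -1.78 in midbrain, -2.24 in amygdala, -1.83 in ventral striatum, -1.80 in cerebral cortex, -2.13 in hippocampus and -2.11 in hypothalamus. At the low dose the same regions had -0.51, -0.78, -0.64, -0.91, -0.58 and -0.63. No low-dose region reached the level of any high-dose region, and all 24 single arrays were below 0. The mean was -1.98 ± 0.20 (SD, n = 6) at the high dose, 0.253 of the saline signal, and -0.68 ± 0.14 at the low dose, 0.626 of it. The high minus low difference was -1.31 ± 0.25 and below 0 in 6 of 6 regions.

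The level of Galnt16 differed between regions. In saline RNA its normalized log2 intensity was highest in the hippocampus, at 11.98, and lowest in the ventral striatum, at 9.99. Amygdala (11.07), cerebral cortex (10.96), hypothalamus (10.95) and midbrain (10.39) lay between them. The hypothalamus did not differ from amygdala or cortex beyond the spread between the arrays of the 2 doses. Over this range of 1.99 log2 units the high-dose ratio ran from -2.24 to -1.78. The gene was chosen for an even ratio, so nothing is read from this contrast. Each value comes from bulk tissue, in which fewer cells of a type and less RNA per cell cannot be told apart.

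Ptprj probe 1 was lower than saline in every region and at both doses, and further from saline at the low dose. Its high-dose log2 ratios were -0.50 in midbrain, -0.41 in amygdala, -0.33 in ventral striatum, -0.40 in cerebral cortex, -0.40 in hippocampus and -0.35 in hypothalamus. Its low-dose ratios in the same order were -0.62, -0.76, -0.63, -0.79, -0.79 and -0.69. The 2 doses did not overlap, and all 24 arrays were below 0. The means were -0.40 ± 0.06 and -0.71 ± 0.08 (SD, n = 6), and the high minus low difference of 0.32 ± 0.10 was above 0 in 6 of 6 regions.

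The other probes of Ptprj gave smaller ratios. Ptprj probe 2, 4389 bases further from the 3′ end, had -0.09 ± 0.11 at the high dose and -0.23 ± 0.14 at the low dose. It was below saline in 5 of 6 and 6 of 6 regions, and like probe 1 it had the lower ratio at the low dose in all 6 regions, with a difference of 0.14 ± 0.06, which was 0.44 with the scanner's own log ratios. Ptprj probe 3, 141413 bases away from probe 1, had 0.03 ± 0.07 and 0.00 ± 0.12. Both were well above background in both colours on only 15 of the 24 arrays, and the offset used in background correction draws the ratios of such dim probes towards 0. On that scale probe 2 had -0.08 ± 0.29 and -0.52 ± 0.33, and probe 3 had 0.06 ± 0.30 and -0.07 ± 0.28.

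Rsf1 was higher than saline in every region at both doses. Its high-dose log2 ratios were 0.48 in midbrain, 0.60 in amygdala, 0.49 in ventral striatum, 0.34 in cerebral cortex, 0.10 in hippocampus and 0.31 in hypothalamus. At the low dose these regions had 0.76, 0.52, 0.64, 0.69, 0.47 and 0.56. The doses overlapped, since the high-dose amygdala lay above 3 of the low-dose regions, and the hippocampus was the lowest region at both doses. Of the 24 arrays 23 were above 0, and the exception was a high-dose hippocampus array at -0.23, whose dye-swap partner had 0.43. The means were 0.39 ± 0.17 and 0.61 ± 0.11, or 1.31 and 1.52 times saline, and their difference was -0.22 ± 0.17.

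Trps1 probe 1 was lower than saline in every region, more so at the high dose. Its high-dose log2 ratios were -0.59 in midbrain, -0.40 in amygdala, -0.52 in ventral striatum, -0.62 in cerebral cortex, -0.61 in hippocampus and -0.30 in hypothalamus. Its low-dose ratios were -0.19, -0.21, -0.24, -0.23, -0.39 and -0.12. The 2 doses overlapped, because the high-dose hypothalamus lay above the low-dose hippocampus. The means were -0.51 ± 0.13 and -0.23 ± 0.09, and the difference of -0.28 ± 0.10 was below 0 in 6 of 6 regions. This probe also had a dye effect of 0.21 in favour of Cy5, so that 2 low-dose arrays were above 0 and 22 of 24 arrays below it. With 1 array of each high-dose or low-dose dye swap left out, so that the dye effect did not cancel, the difference lay between -0.49 and -0.06.

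The other probes of Trps1 had ratios near 0. Trps1 probe 2, 1381 bases away, was well above background on all 24 arrays and had 0.09 ± 0.10 at the high dose and 0.00 ± 0.11 at the low dose. Trps1 probe 3, 166613 bases away, had -0.05 ± 0.07 and -0.03 ± 0.10. Their differences between the doses were 0.09 ± 0.11 and -0.02 ± 0.15. Over the 12 region and dose values, Trps1 probe 1 correlated with probe 2 at r = 0.04 and with probe 3 at r = 0.31, values that share arrays.

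**Figure D1:**
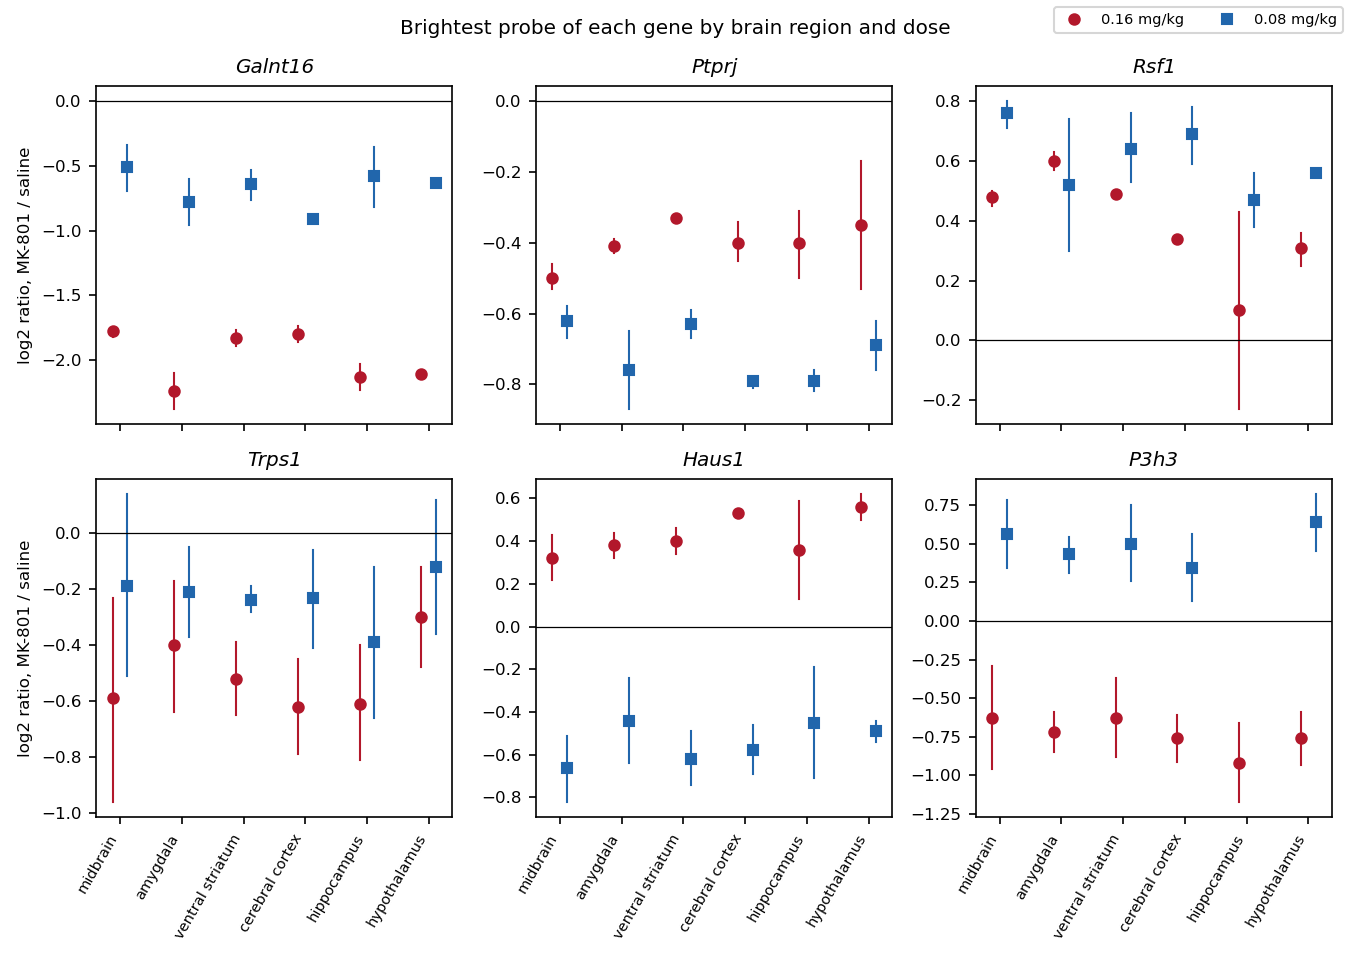
Log2 ratio of MK-801 to saline (y axis, a separate scale in each panel) of the brightest probe of each gene in the 6 regions (x axis) at the high dose (red circles) and the low dose (blue squares); a point is the mean of a dye swap and its bar joins the 2 single arrays. The points of Galnt16 and Ptprj lie below 0 throughout and those of Rsf1 above 0, while those of Haus1 and P3h3 lie on opposite sides of 0 at the 2 doses; the low-dose hippocampus of P3h3 has no point because 1 of its spots was an outlier.

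Haus1 changed sign with the dose, and its 2 probes did so in opposite directions. Probe 1 had high-dose log2 ratios of 0.32 in midbrain, 0.38 in amygdala, 0.40 in ventral striatum, 0.53 in cerebral cortex, 0.36 in hippocampus and 0.56 in hypothalamus. Its low-dose ratios were -0.66, -0.44, -0.62, -0.58, -0.45 and -0.49. All 12 high-dose arrays were above 0 and all 12 low-dose arrays below it. The means were 0.43 ± 0.09 and -0.54 ± 0.09 (SD, n = 6), or 1.34 and 0.688 times saline.

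Haus1 probe 2 showed the reverse on every array. Its high-dose ratios were -0.20, -0.24, -0.08, -0.23, -0.16 and -0.07 in the same order of regions, and its low-dose ratios were 0.42, 0.38, 0.34, 0.18, 0.21 and 0.28. All 12 high-dose arrays were below 0 and all 12 low-dose arrays above it, with means of -0.16 ± 0.07 and 0.30 ± 0.09. The 2 probes lie 2435 bases apart, and both were well above background on all 24 arrays. Their 12 region and dose values had r = -0.94. This mostly restates the opposite signs at the 2 doses, and the values share arrays. With the scanner's log ratios the means were 0.47 and -0.58 for probe 1 and -0.18 and 0.35 for probe 2.

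P3h3 probe 1 changed sign as well, in the direction opposite to Haus1 probe 1. Its high-dose log2 ratios were -0.63 in midbrain, -0.72 in amygdala, -0.63 in ventral striatum, -0.76 in cerebral cortex, -0.92 in hippocampus and -0.76 in hypothalamus. At the low dose it had 0.56, 0.43, 0.50 and 0.34 in the first 4 of these regions and 0.64 in hypothalamus. The low-dose hippocampus had 1 usable array, with MK-801 in Cy3, at 0.24, and was left out of the mean. This probe had a dye effect of 0.21 in favour of Cy5, so 0.24 cannot be set beside dye-swap means. The low-dose arrays of the other regions with MK-801 in Cy3 ranged from 0.13 to 0.45. The means were -0.74 ± 0.11 (n = 6) and 0.49 ± 0.11 (n = 5), or 0.601 and 1.41 times saline, and the high minus low difference was -1.19 ± 0.12 (n = 5).

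P3h3 probe 2, 13957 bases away, had -0.04 ± 0.08 and 0.01 ± 0.08, with 3 regions above and 3 below 0 at each dose. It was well above background on 19 of the 24 arrays, and with the scanner's log ratios it had -0.06 ± 0.34 and 0.09 ± 0.20. Of the 4 genes with several probes, the others therefore held 1 probe of the same sign at smaller size at both doses (Ptprj probe 2), 1 of opposite sign (Haus1 probe 2), and 4 with means between -0.05 and 0.09.

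**Figure D2:**
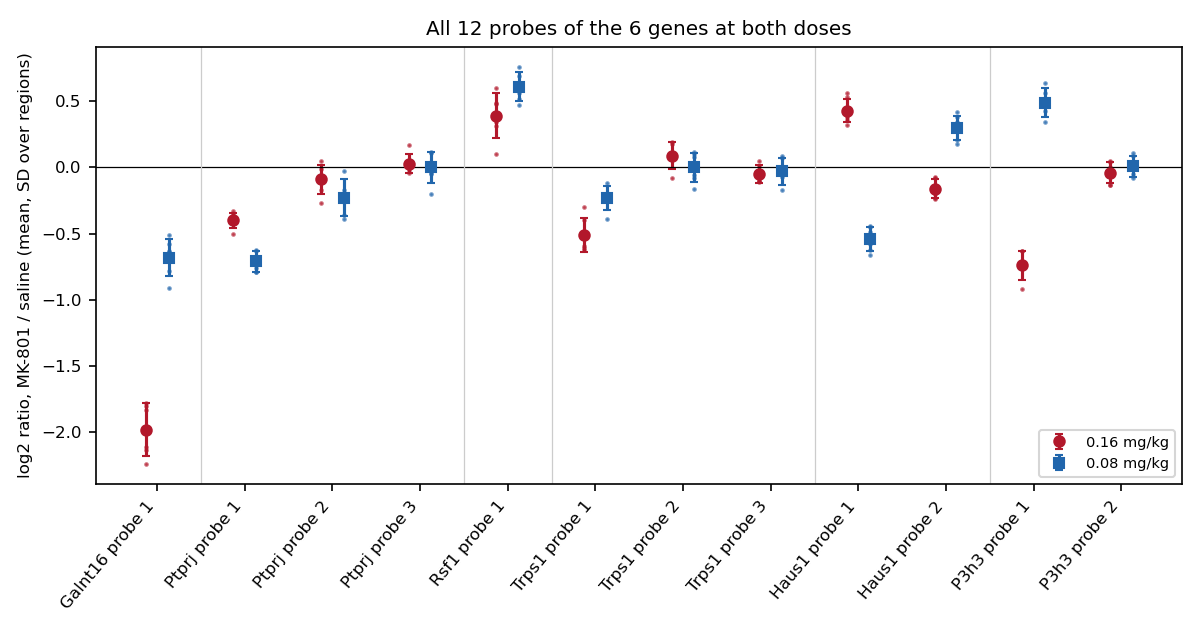
Mean log2 ratio of MK-801 to saline (y axis) of each of the 12 probes (x axis) at the high dose (red circles) and the low dose (blue squares); bars are the SD over regions and small dots the regional values. Within Ptprj, Trps1 and P3h3 the size is greatest for probe 1, at -0.71, -0.51 and -0.74, and the 2 Haus1 probes mirror each other. The genes were chosen for such ratios, so nothing is read from probe 1 being the largest.

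Read against all probes, a single sign in every region was uncommon. Of probes with 6 regional values, 7.97% had 1 sign in all 6 regions at the high dose and 8.83% at the low dose. Opposite signs at the 2 doses, each in all 6 regions, were found for 0.276% of probes, among which are both Haus1 probes, and doses that do not overlap for 1.03%, among which are Galnt16, Ptprj probe 1 and both Haus1 probes. The members were chosen by these ratios, so nothing is read from their own counts. The median SD over regions was 0.07 for all probes at either dose, against 0.06 to 0.20 for the brightest probes of the 6 genes. The 100 probes with a mean size over 0.35 at the high dose had a median SD of 0.18, and the 88 such probes at the low dose 0.14.

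**Figure D3:**
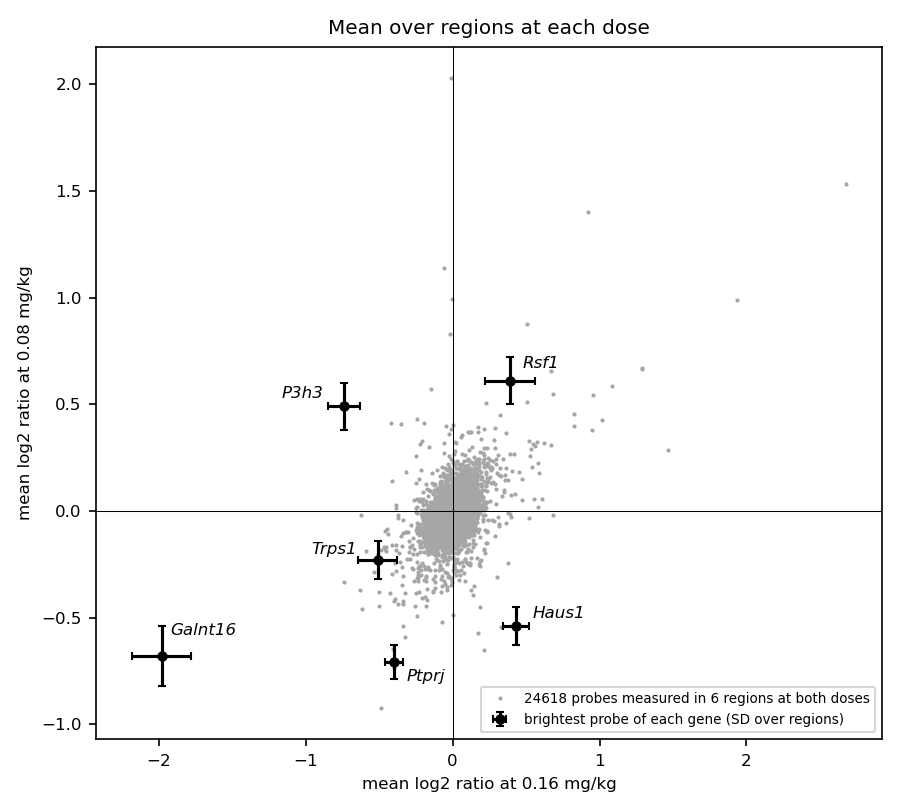
Mean log2 ratio of MK-801 to saline over the regions at the high dose (x axis) and the low dose (y axis) for the 24618 probes measured in 6 regions at both doses (grey) and the brightest probe of each gene (black, bars are the SD over regions). Galnt16 lies at -1.98 and -0.68, while P3h3 and Haus1 lie in the quadrants of opposite sign, at -0.74 and 0.49 and at 0.43 and -0.54.

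The saline channels were then compared between the arrays of the 2 doses, which asks whether the saline side of the ratios differed between them. Both sets of arrays drew on the same saline rats, so few differences are to be looked for by design. The comparison cannot show whether the saline rats differed from the MK-801 rats. None of 27267 probes passed in limma at an adjusted p under 0.05, with Benjamini-Hochberg adjustment over all probes (0%), against 1961 at an unadjusted p under 0.05, and the adjusted p of the 12 probes lay between 0.515 and 1. For Galnt16 the saline level on the high-dose arrays minus that on the low-dose arrays was 0.00 ± 0.18, for Ptprj probe 1 it was 0.01 ± 0.08, for Rsf1 0.01 ± 0.31 and for P3h3 probe 1 -0.03 ± 0.16 (n = 5). Haus1 probe 1 had -0.11 ± 0.25 and Trps1 probe 1 had -0.26 ± 0.34. Haus1 probe 2 had 0.48 ± 0.46, with all 6 regions above 0, and its hippocampal value of 1.39 stood apart from the others, which lay between 0.07 and 0.45. Single channels were less precise than ratios, with a median SD over regions of 0.242 against 0.0874 for the high minus low ratio.

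The MK-801 channels alone, a comparison added after the data were seen, differed between the doses for 11 of the 27267 probes (0.0403%). For Galnt16 the difference was -1.31 ± 0.34, the same mean as in the ratios. Ptprj probe 1 had 0.32 ± 0.10, Trps1 probe 1 -0.54 ± 0.30 and Rsf1 -0.21 ± 0.42. Haus1 probe 1 had 0.86 ± 0.19 and P3h3 probe 1 -1.22 ± 0.22 (n = 5). For Haus1 probe 2 the MK-801 channels differed by 0.01 ± 0.52, a mean that rests on the hippocampus, at 1.02, since the median was -0.20 and 4 of 6 regions were below 0. Without the hippocampus, a setting added after the data were seen, the MK-801 channels of this probe differed by -0.19 ± 0.18 and its saline channels by 0.29 ± 0.14 (n = 5).

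The regional order of the levels differed between the genes. In saline RNA, Ptprj probe 1 was highest in hippocampus (11.98) and hypothalamus (11.93), which did not differ beyond the spread between the arrays of the 2 doses, followed by cerebral cortex (11.68), amygdala (11.41), ventral striatum (11.07) and midbrain (10.44). Rsf1 was the most even, from 10.01 in amygdala over 9.88, 9.86, 9.71 and 9.64 in ventral striatum, hippocampus, midbrain and cortex to 9.33 in hypothalamus, and the hypothalamus lay clear of all 5 other regions. The amygdala overlapped ventral striatum and hippocampus and lay clear of midbrain and cortex. Trps1 probe 1 ran from 11.07 in amygdala and 10.77 in midbrain to 9.85 in cortex, with 10.62, 10.50 and 10.26 in ventral striatum, hippocampus and hypothalamus, whose arrays overlapped.

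Haus1 probe 1 was highest in midbrain (10.91) and lowest in hippocampus (9.84). Its levels in ventral striatum (10.59), amygdala (10.51), hypothalamus (10.46) and cortex (10.16) lay between them. The amygdala overlapped ventral striatum and hypothalamus, and the other neighbours in this order lay clear of each other. Haus1 probe 2 had 10.35 in midbrain, 10.27 in cortex, 10.05 in amygdala and 9.97 in ventral striatum, and was lower in hippocampus (8.62) and hypothalamus (8.58). P3h3 probe 1 was highest in amygdala, at 13.02, the region in which all 6 meningeal markers were also highest. It had 12.08 in ventral striatum, 11.92 in hippocampus from the high-dose arrays alone, 11.72 in cortex, 11.69 in midbrain and 11.49 in hypothalamus. Amygdala also had the highest level of Rsf1 and of Trps1 probe 1. The dim P3h3 probe 2 had 7.29 in hippocampus and 7.18 in amygdala, whose arrays overlapped.

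**Figure D4:**
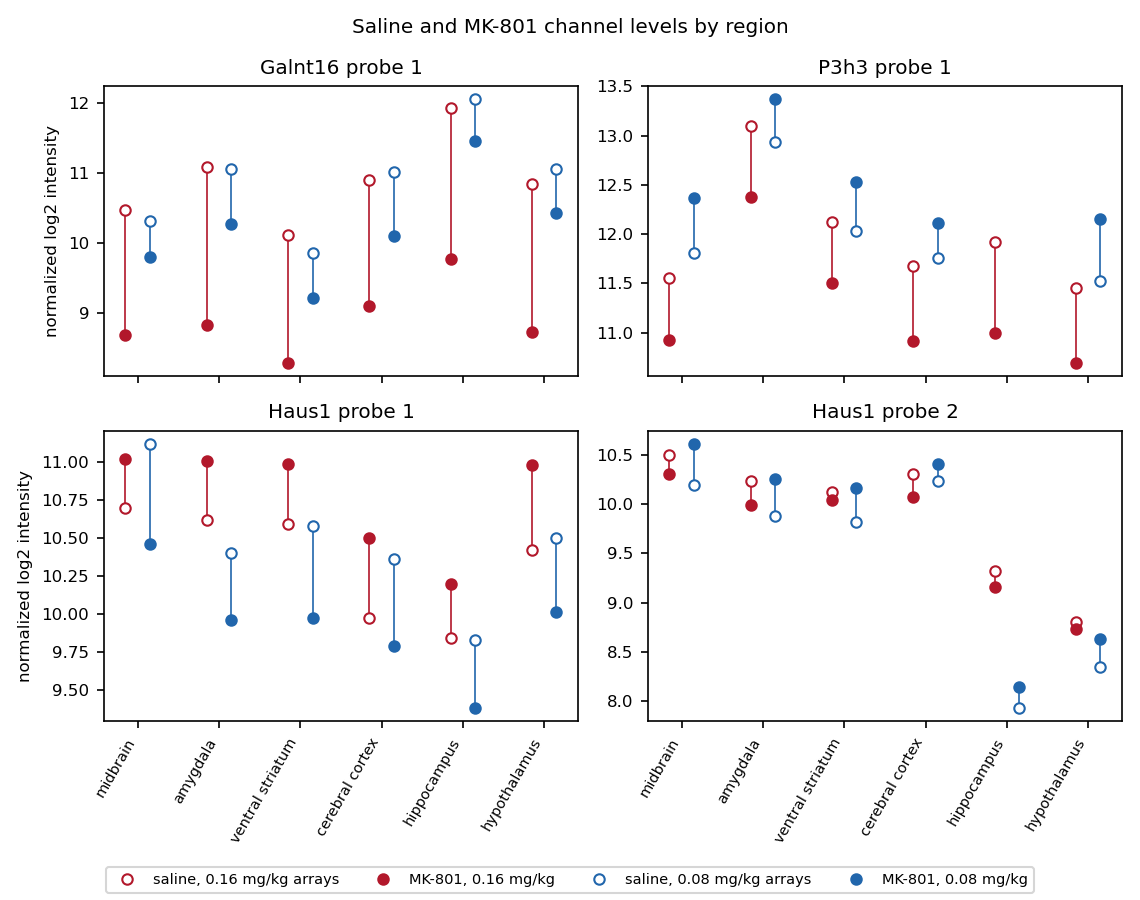
Normalized log2 intensity (y axis, a separate scale in each panel) of the saline channel (open) and the MK-801 channel (filled) in the 6 regions (x axis) on the high-dose arrays (red) and the low-dose arrays (blue); a line joins the 2 channels of a dye swap, without replicates. In Galnt16 the open points of both colours nearly coincide, with a mean difference of 0.00, while the filled ones differ by 1.31; in Haus1 probe 2 the open points differ by 1.39 in the hippocampus.

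The median of the red blood cell markers had opposite signs at the 2 doses as well. Of 4 listed genes 3 were measured, and Hba-a1 was not. Their median log2 ratio was 0.30 at the high dose and -0.31 at the low dose. In limma 3 of 3 rose at the high dose and 2 of 3 fell at the low dose, where 2.01% and 2.42% of all probes passed. The summed intensity of the 3 was 1710 to 4430 in the saline channels and 2360 to 4890 in the MK-801 channels of the high-dose arrays, and 1690 to 3040 and 1230 to 2220 on the low-dose arrays. It was higher than saline in 6 of 6 regions at the high dose and in 0 of 6 at the low dose. These signs are those of Haus1 probe 1 and the reverse of those of Haus1 probe 2 and P3h3 probe 1. The part of red blood cells in the ratios of either gene was not tested. The meningeal list, fibroblast genes of collagen-rich tissue, had a median of 0.03 at the high dose and -0.22 at the low dose. At the low dose 1 of 6 fell, while P3h3 probe 1 was above saline. Among the other marker lists microglia had the most calls at a dose, with 2 of 6 rising at the low dose.

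The relatives of the 6 genes in their pathways had ratios near 0. Lists of 91 genes were compared, with 65 measured, against a background of 2.01% of 27530 probes that passed at the high dose and 2.42% of 27531 that passed at the low dose (limma, adjusted p). At the high dose 1 of the 65 fell and 0 rose, and at the low dose 0 passed in either direction. At an unadjusted p under 0.05 the counts were 9 and 10 of the 65, against 3300 of 27530 and 3560 of 27531 probes. The medians of the 65 were -0.01 and 0.00, and the largest size was 0.14. The gene that fell was P4ha1, a prolyl 4-hydroxylase of collagen, with -0.14 ± 0.06 at the high dose (limma, adjusted p = 0.0276) and -0.10 ± 0.07 at the low dose (0.122).

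None of the 13 measured GalNAc transferases and core 1 enzymes passed at either dose in limma, with sizes up to 0.10. The same held for the 16 receptor-type tyrosine phosphatases (up to 0.09), the 10 genes of ISWI remodelling (up to 0.07) and the 3 measured GATA-type factors (up to 0.07). It held also for the 9 genes of augmin and gamma-tubulin (up to 0.10). Of the 64 with enough values for the difference between the doses, 0 passed in limma, where 394 of 27267 probes, or 1.44%, passed. An unadjusted p under 0.05 was found for 5 of the 64, against 2949 of the 27267 probes.

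The nearest named genes on each side of a member, 3 per side by the probe positions in the files, mostly had ratios near 0. Of the 36 neighbours 1 passed at the high dose and 2 at the low dose, where 2.01% and 2.42% of all probes passed. Counts this small cannot be told from those shares. Kctd14, 239.6 kb from Rsf1, was higher than saline like Rsf1, with 0.21 ± 0.12 at the high dose (limma, adjusted p = 0.0164) and 0.24 ± 0.12 at the low dose (0.00424). Ints4, a subunit of the Integrator complex, and Aamdc lie between them and had 0.09 and 0.05, and -0.07 and -0.11. Gnb3, a G protein subunit 5.9 kb from P3h3, had -0.12 ± 0.11 and 0.12 ± 0.04 (limma, adjusted p = 0.145 and 0.024), signs like those of P3h3 probe 1. The 6 neighbours of Galnt16, within 996.7 kb, had sizes of at most 0.09, and those of Ptprj at most 0.08. For Trps1 the neighbours lay up to 6302.2 kb away and had sizes of at most 0.17.

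Probes of unnamed transcripts lie even nearer to some members. The counts below take in all other probes within 100 kb, named or not, and some of the named ones are neighbours given above. Unnamed were 3 of 5 probes around Rsf1, 6 of 8 around Galnt16, 4 of 5 around Haus1 and 7 of 20 around P3h3. Within 100 kb of Rsf1, 5 other probes were kept as measurable and had sizes of at most 0.06, and within 100 kb of Galnt16, 7 of 8 probes were kept and had at most 0.07. Around Haus1 2 of 5 probes were kept, with sizes of at most 0.09, and around P3h3 17 of 20, with at most 0.15. A probe on chromosome 3 for a transcript described as similar to Rsf1 had -0.09 ± 0.18 and -0.02 ± 0.10.

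The genes whose 12 region and dose ratios were most like those of a member are given as a description, since the values share arrays and saline rats. For Galnt16 they included Mapk14, the p38 alpha kinase (r = 0.97), and C1qtnf9 (0.95), among 10256 named genes. The r follows the pattern over regions and doses and not the size or sign of the ratios. Mapk14 had only -0.17 ± 0.04 at the high dose and -0.02 ± 0.02 at the low dose. C1qtnf9 had -0.21 ± 0.07 at the high dose and 0.33 ± 0.10 at the low dose and so, unlike Galnt16, had opposite signs at the 2 doses. For P3h3 they included Acad10 (r = 0.98 over 11 values) and Pyroxd2 (0.97), and Pyroxd2 had -0.15 ± 0.16 and 0.57 ± 0.07. For Haus1 they were Cd52, a surface protein of leukocytes (0.95), Fam168a (0.93) and Tnfrsf19 (0.93). Cd52 had 0.23 ± 0.09 and -0.15 ± 0.09.

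For the other members the likeness was weaker. Ptprj had Tnfrsf19 (r = 0.90), Adi1 (0.90) and Cyb561a3 (0.88). Their means were 0.08, 0.03 and 0.02 at the high dose, where Ptprj was below saline, and -0.13, -0.23 and -0.23 at the low dose. Rsf1 had Ccdc90b (0.92) and Sorbs3 (0.87), and Trps1 had Mccc2 (0.90), Trappc11 (0.88) and Mrpl53 (0.88). Means near 0 at the high and the low dose were those of Ccdc90b (-0.03 and 0.02), Sorbs3 (-0.05 and 0.08) and Mrpl53 (-0.01 and 0.02). Trappc11 had -0.25 and 0.13. Mccc2, an enzyme of leucine breakdown, had 0.07 ± 0.10 and 0.36 ± 0.12, so that its step between the doses and not its sign was like that of Trps1.

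Ratios of 1 sign in all 6 regions with an SD of at most 0.25 of the mean were counted over 10261 named genes. They were found for 35 genes at the high dose (0.341%) and 50 at the low dose (0.487%), members included. The members were chosen for even ratios, so their own part in these counts is fixed by the choice. P3h3 could not enter, because a gene needed values in every region at both doses. At the high dose the largest of the other genes included Abcg2, a transporter that pumps drugs out of brain endothelium (0.69 ± 0.10), Irf7, a transcription factor of the interferon response (-0.59 ± 0.08), Chmp1b2 (0.53 ± 0.10) and Dusp19 (-0.44 ± 0.05). At the low dose they were RT1-CE3 (-0.74 ± 0.11) and RT1-CE16 (-0.65 ± 0.10), class I genes of the rat major histocompatibility complex, Pyroxd2, Abcg2 (0.55 ± 0.10) and Asb13 (0.45 ± 0.09). Of the genes named here Pyroxd2 had means of opposite sign at the 2 doses, as Haus1 and P3h3 did, and the others had means of 1 sign.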

How the data were processed

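Per the labels, total RNA was amplified, labelled with Cy3 and Cy5 and hybridised so that the 2 dyes of an array carried MK-801 and saline material. Per the submitters' processing notes, the arrays were read with Agilent Feature Extraction 9.5.3.1. The deposited scanner files hold a mean and a background intensity per colour, a log10 ratio and flags for 45018 spots. The deposited value table holds log10 ratios of Cy5 to Cy3, which equalled the ratio of the scanner's processed signals to within 5e-07 for 19 arrays and 0.00413 for the other 5, and was neither turned for dye swaps nor centred (medians -0.0259 to 0).

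Analysis used R 4.3.3 with limma 3.58.1. Intensities were corrected by normexp (offset 50) and normalized by loess within arrays, with controls left out of the loess fit. For single channels, Aquantile followed. Outlier spots were left out after normalization, when spots were averaged per probe. Log2 ratios were turned to MK-801 over saline and averaged over each dye swap. Kept probes were those that both colours showed well above background on 12 or more of the 24 arrays. Symbols were taken from RefSeq's table of rat genes (GRCr8, names only), by accession for 10735, symbol for 5577, synonym for 3730 and description for 30, and 20940 had no symbol. A gene was represented by its brightest kept probe.

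For genes other than the members and for the saline channels, the 6 regional values, at least 4 of them required, were tested against 0 with lmFit and eBayes, adjusted by Benjamini-Hochberg over all kept probes and called at an adjusted p under 0.05. Since all regions came from the same animals, a p-value here reflects how evenly regions responded. The fits were tested on simulated data with independent regional values, a check that does not cover the sharing of rats between regions. The members, gene lists and tests were chosen with earlier results of these data known. Named besides the 6 genes were passing relatives of their families, the 3 nearest named genes per side, the 3 most alike genes and, per dose, the 5 largest uniform ones. Some genes that this rule names are not reported here. The labels number the arrays of a region 1 to 4, which marks dye orientation and dose. The number of arrays limits the precision. Alternatives covered scaling, filters, the prior, regions, scan days and array numbers.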

Additional observations from a re-analysis of the deposited data

Results flagged for a closer look

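For 3 probes every region had one sign at the high dose and the other at the low dose. Haus1 probe 1 differed by 0.97 ± 0.12, Haus1 probe 2 by -0.46 ± 0.12 and P3h3 probe 1 by -1.19 ± 0.12 (n = 5). These differences were not tested, because the genes were chosen on these ratios.

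The saline level of Haus1 probe 2 in the hippocampus was 1.39 log2 units higher on the high-dose arrays than on the low-dose arrays, while the other regions had 0.07 to 0.45. The gap to the nearest region was 0.712 of the whole range, over Dixon's critical value for 6 values. It was the 1 such value among 36 groups examined, and chance gives about 1 in 20.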

How the results depend on the processing

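The direction of the brightest probe of each of the 6 genes was the same under all alternatives at both doses. Of 512 values of single probes 471 moved by less than the spread between regions. Probe counts at the high dose, the low dose and for the difference were 282, 360 and 197 when the scanner's ratios were used, 155, 381 and 112 with median centring, and 285, 351 and 195 with the series' value table. Galnt16 at the high dose was -2.26 with either of the scanner's ratios and the value table.

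Within the scan days of ventral striatum and cortex, midbrain and amygdala, and hippocampus and hypothalamus, the counts were 331, 230 and 134 at the high dose, 165, 67 and 287 at the low dose, and 159, 90 and 91 for the difference, with 40 saline channel calls in the first. Rsf1 at the high dose was 0.20 in the last. The Galnt16 difference was -1.04 in the first.

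Leaving out a region or an array number gave counts of 320 to 8875 at the high dose, 426 to 9649 at the low dose, 260 to 8776 for the difference and 0 to 2 for the saline channels. The highest counts keep 1 dye orientation, so that the dye effect stays in. Without a region the lowest counts were 320 without the cortex (345 without the amygdala and 347 without the ventral striatum), 426 and 260 without the ventral striatum. Trps1 probe 1 ranged from -0.72 to -0.29 at the high dose, -0.43 to -0.03 at the low dose and -0.49 to -0.06 for the difference (-0.06 without array number 2 and -0.08 without 3). P3h3 probe 1 ranged from -0.95 to -0.52, 0.29 to 0.69 and -1.40 to -0.98, and Haus1 probe 1 from -0.67 to -0.41 at the low dose and 0.83 to 1.10 for the difference.

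The replicate block, with dye orientation as a term on single arrays, gave 713, 911 and 313 calls. In the MK-801 channels alone, added after the data were seen, 11 probes were called, Trps1 probe 1 had -0.54, and Haus1 probe 2 turned to 0.01. Without the hippocampus these were 15, -0.46 and -0.19. The causes were not tested. Signal over background limited Ptprj probes 2 and 3 and P3h3 probe 2.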
